A study of Rattus norvegicus with 32 samples.

Results

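Expression in normal mammary gland was compared between ACI and WF, both inbred rat strains, on the 5 arrays labelled ACI and the 5 labelled WF, which are 10 of the 32 arrays of the series. Members were taken by the strain named in the sample titles alone, and no measured value was used to choose them. Total RNA of the gland was hybridised to an Affymetrix rat array, with 1 array per sample, and the other 22 arrays held the strains Cop, F344 and BUF/N, the F1 hybrid of Cop and F344 (5 arrays each) and a pool each of Cop and F344. No transgene, treatment or other intervention is named for any group, and the labels used here give strain and tissue but no age, sex, parity, stage of the oestrous cycle, hour of collection or batch. The labels do not say whether the samples of a strain were taken from separate animals. The p-values therefore reflect only how much these samples varied, which may be technical variation.

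The rat mammary gland is a tree of luminal and basal epithelial cells set in a fat pad, with blood vessels, immune cells, connective tissue and, where the dissection includes it, skeletal muscle of the body wall. ACI is known as a strain in which oestrogen readily induces mammary tumours, and WF as a strain susceptible to chemically induced mammary cancer. The title of the series names inherited susceptibility to mammary cancer as its subject, and ACI and WF differ by descent at many loci, among them the RT1 complex, which is the major histocompatibility complex of the rat.

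Markers of the labelled tissue were present in both strains. Signals stood above the median of all array values (78.4) on all 10 arrays for 10 of 12 tested luminal epithelial markers, 8 of 9 basal and smooth muscle markers, 16 of 17 adipocyte genes and 9 of 11 milk protein genes. Testing itself required signals above that median on at least 5 of the 30 arrays. Other lists varied, with 13 of 13 glycolysis genes, 8 of 9 macrophage markers and 3 of 18 skeletal muscle genes. These counts therefore show signal but do not single out this tissue. ACI 2 and ACI 5 stood apart from the other ACI arrays. Their median signals were 102.1 and 101.8, against 77.4 to 81.2 on the other 3 ACI arrays and 78.4 to 86.8 on the WF arrays, although all 30 single-sample arrays had the same trimmed mean signal. The 3' to 5' signal ratio of the actin control, which rises as RNA degrades, was 1.78 on ACI 2 and 1.80 on ACI 5, against 1.19 to 1.34 on the other ACI arrays and 1.01 to 1.25 on the WF arrays. It was highest of all on F1 1, at 1.98. For GAPDH the same ratio was lower on these 2 arrays than on the other ACI arrays, at 0.887 on ACI 2 and 0.967 on ACI 5, against 0.982 to 1.13 on the other ACI arrays and 0.924 to 1.35 on the WF arrays. Across tested probe sets, which are not independent replicates, the correlation between ACI 2 and ACI 5 was 0.951, that of either with ACI 1, ACI 3 or ACI 4 lay between 0.876 and 0.913, and that of an ACI with a WF array between 0.837 and 0.947. Results are therefore also given without ACI 2 and ACI 5, and the part of RNA quality in any difference was not tested.

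Changes between the strains ran in both directions. They reached from 19.6-fold higher in ACI, on 1 probe set of the MHC class II gene RT1-Bb, to 34.7-fold lower for the epithelial lipocalin gene Lcn2. Another RT1-Bb probe set was at least 32.1-fold lower in ACI. For this gene a sequence difference under a probe and a difference in RNA level cannot be told apart. A change is given as the ACI minus WF difference of mean log2 signals, with signals under the floor of 18.3 raised to it, and a probe set is called where limma's adjusted p is under 0.05. Of 5039 probe sets tested, 362 (7.18%) were called, 176 (3.49%) higher and 186 (3.69%) lower in ACI, and 1010 (20%) had an unadjusted p under 0.05. Beyond a 2-fold change, 65 (1.29%) were higher and 85 (1.69%) lower. The signals of the 5 ACI and the 5 WF arrays did not overlap at 341 probe sets (6.77%), and 229 (4.54%) were both called and without overlap. With 1 probe set per gene, 195 of 3053 genes (6.39%) were called, 97 higher (3.18%) and 98 lower (3.21%), and the median change over these genes was 0.025. Without ACI 2 and ACI 5, 191 probe sets were called, 152 of them among the 362, and all 362 kept their direction. The count was 210 in a fit of the ACI and WF arrays alone, 230 without ACI 2 and 241 without ACI 5.

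**Figure D1:**
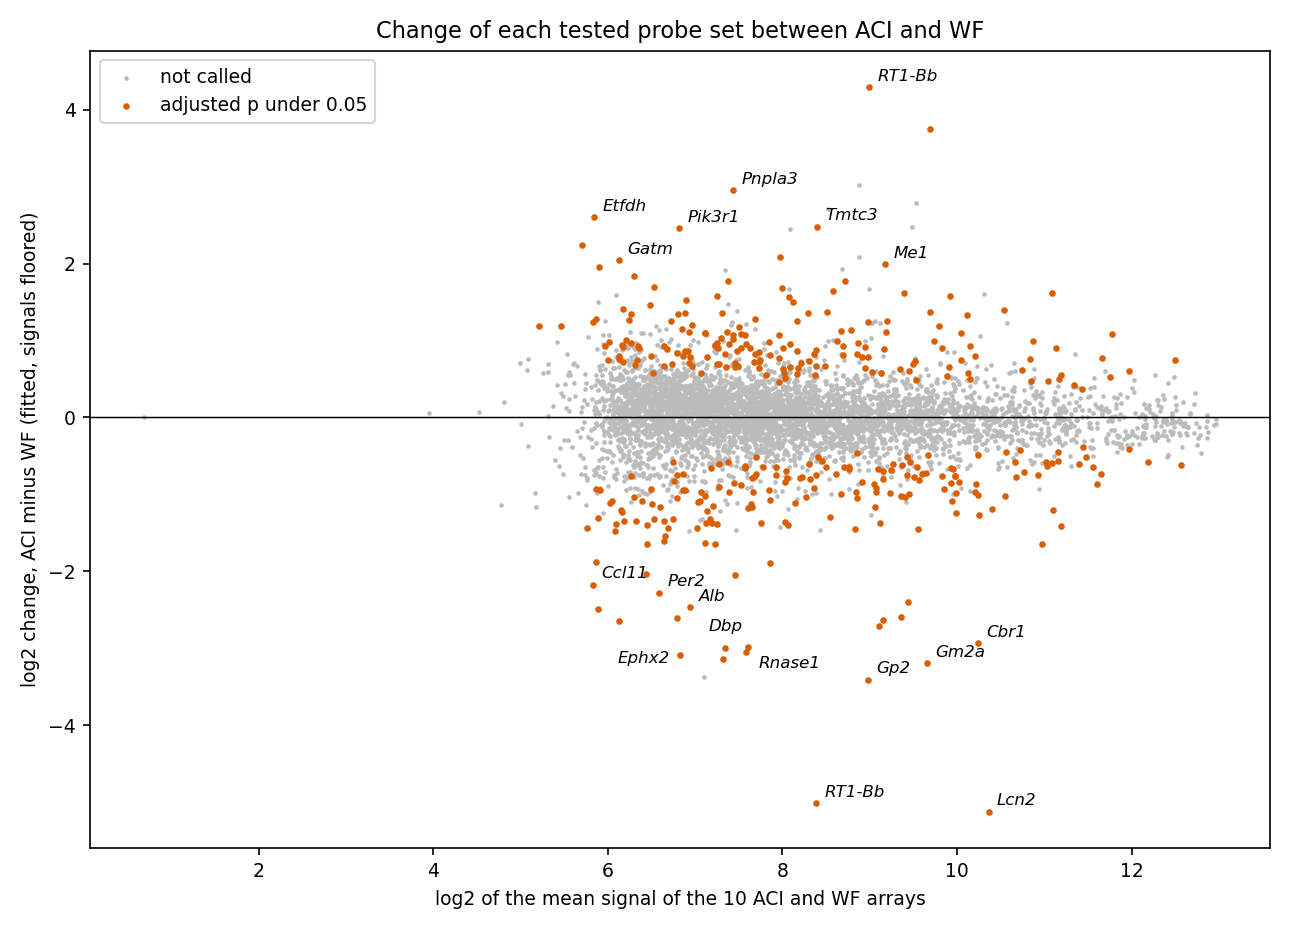
The plot sets the fitted log2 change (ACI minus WF) of each of 5039 tested probe sets against the log2 of its mean signal on the 10 arrays. The 362 called probe sets are orange, and 17 genes with the largest non-overlapping changes are labelled, from RT1-Bb at 4.29 to Lcn2 at -5.12. RT1-Bb is also labelled at -5.01, on another probe set.

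The called genes of the circadian clock were all lower in ACI. The clock is a feedback loop in which the BMAL1 and CLOCK proteins switch on Per and Cry genes, whose products then shut them off, and output factors such as DBP carry the rhythm to other genes, so that levels of these transcripts depend on the hour at which a tissue is taken. Counts over a gene list use, for each gene, the tested probe set of highest mean signal, and a call on another probe set of a listed gene is named beside them. Over all 3053 genes 3.18% were called higher and 3.21% lower, and every list count is to be read against these shares. Of 7 tested clock genes 3 were called, all lower in ACI (Dbp, Per2 and Bhlhe41), and all 7 had a negative change, with a median of -0.98 against 0.025 over all genes. The same counts were found without ACI 2 and ACI 5.

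Dbp, a PAR bZIP transcription factor and a direct output of the clock, read 359, 164, 213, 253 and 22.7 on ACI 1 to ACI 5 and 929, 1207, 935, 813 and 769 on WF 1 to WF 5 (the order used for all lists of 5 signals). The groups did not overlap, and ACI 5 was far below the other ACI arrays. The change was -2.63 (SE 0.41, adjusted p = 5.44e-05), and -1.77 (adjusted p = 5.85e-06) without ACI 2 and ACI 5. A second Dbp probe set gave -2.99 (adjusted p = 4.07e-08). Per2, a period gene and repressor of the clock, read 63.3, 12.3, 39.5, 33.9 and 13.8 in ACI and 82.1, 123, 159, 212 and 221 in WF. Again no ACI array reached the lowest WF array, and ACI 2 and ACI 5 lay under the floor (log2 change -2.27, SE 0.35, adjusted p = 5.91e-05, and -1.77 (adjusted p = 0.00433) without them). Bhlhe41, also called Dec2, a repressor that binds E-boxes, read 466, 328, 363, 411 and 460.3 in ACI and 728, 724, 816, 1042 and 693 in WF, without overlap (log2 change -0.98, SE 0.15, adjusted p = 4.25e-05).

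The 4 clock genes that were not called all had negative changes. For Nr1d2, a nuclear receptor that represses Bmal1, the value was -1.06 (adjusted p = 0.0773), and for its relative Nr1d1 -0.60 (adjusted p = 0.249). Bhlhe40 stood at -0.61 and the PAR bZIP gene Tef at -0.23. In these 4 genes the arrays of both strains overlapped. Array weights brought the called clock genes to 5, and every other setting left 3 or 4. Set against the mean of Cop, F344 and BUF/N in the same fit, Dbp was at -2.58 in ACI (adjusted p = 3.61e-06) and 0.047 in WF (adjusted p = 0.969). Per2 was at -1.88 in ACI and 0.39 in WF, and Bhlhe41 at -0.94 and 0.036. The F1 hybrid is not part of that mean. Its mean Per2 signal of 42.4 was near that of ACI (32.6) and below that of WF (159.5), so low Per2 was not particular to ACI. Its means of Dbp (631) and Bhlhe41 (573) lay between those of ACI (202 and 406) and WF (931 and 801). Strain and hour of collection cannot be told apart here, because no hour is given.

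**Figure D2:**
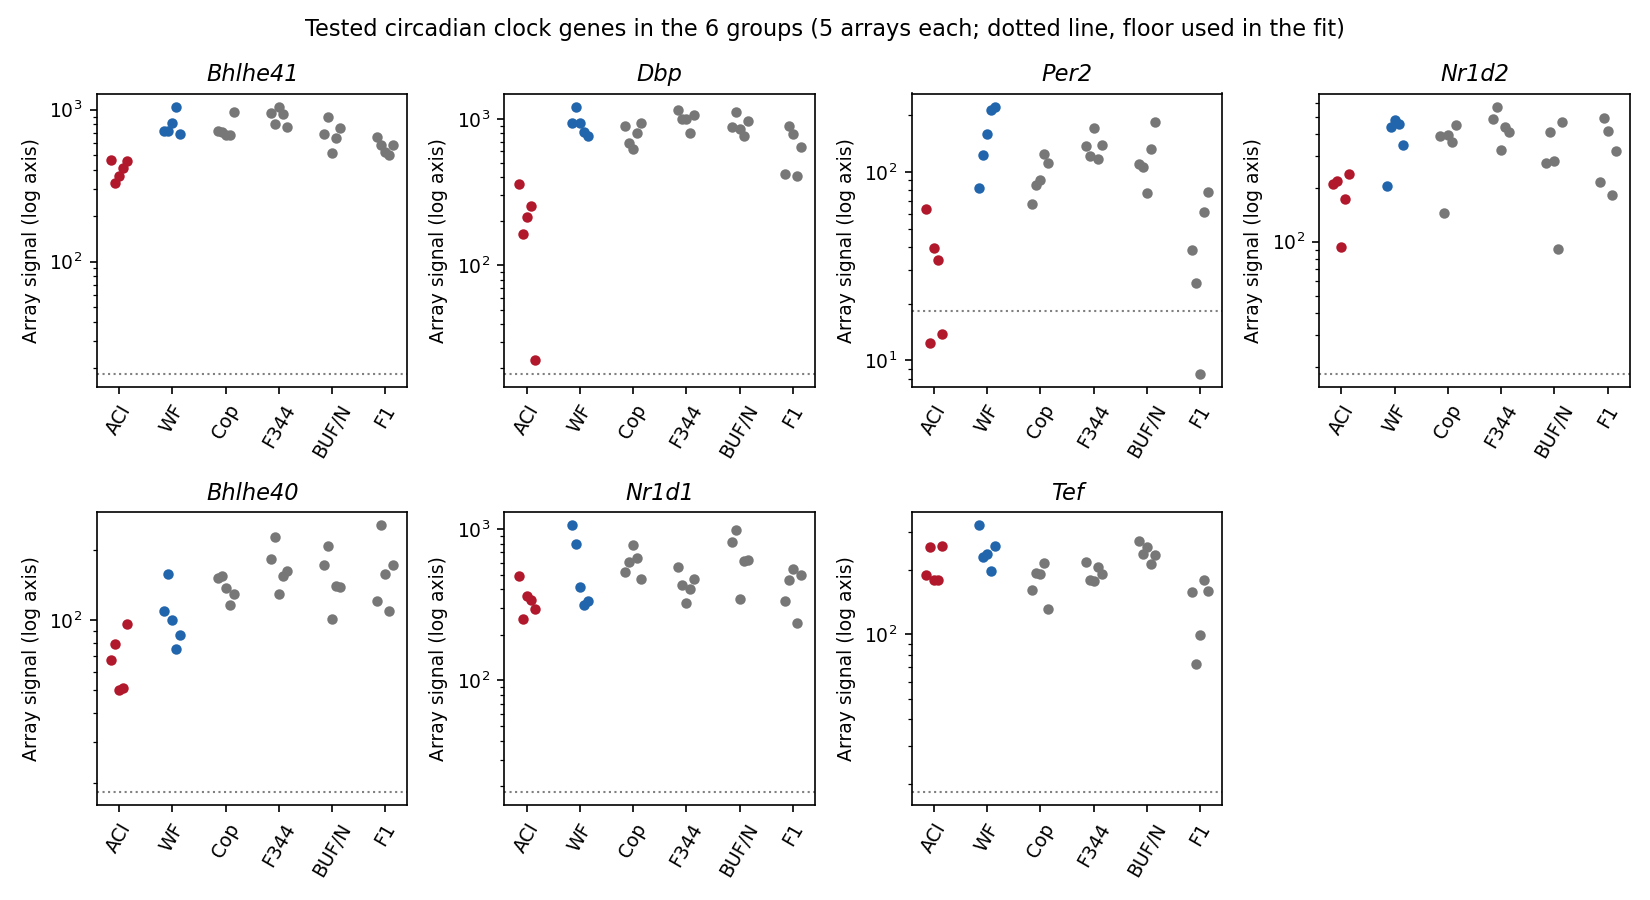
Each panel plots the array signal (log axis) of a tested clock gene for the 5 arrays of each of the 6 groups, with ACI in red, WF in blue and the other groups in grey. For Dbp, Per2 and Bhlhe41 no ACI array reaches a WF array, and for the other 4 genes the ACI and WF arrays overlap.

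The sequences upstream of the 3 called clock genes are shown because the clock acts in part through short elements. Of these, the E-box (CACGTG) and the D-box (TTANGTAA) were searched on both strands. The window was the 300 bases from 250 before to 50 after the gene start, as given by RefSeq for GRCr8. The 250 bases before the start are printed 5' to 3' along the gene, with the element in capitals. Bhlhe41 (chr4:180569356-180569605, minus strand) holds an E-box that begins 48 bases before the start, and Per2 (chr9:99496994-99497243, minus strand) a D-box that begins 192 bases before it.
Bhlhe41: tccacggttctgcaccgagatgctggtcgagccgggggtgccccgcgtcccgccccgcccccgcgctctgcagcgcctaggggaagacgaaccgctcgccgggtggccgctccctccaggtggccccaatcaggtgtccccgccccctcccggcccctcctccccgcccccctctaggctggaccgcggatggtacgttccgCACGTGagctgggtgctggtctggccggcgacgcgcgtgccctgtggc
Per2: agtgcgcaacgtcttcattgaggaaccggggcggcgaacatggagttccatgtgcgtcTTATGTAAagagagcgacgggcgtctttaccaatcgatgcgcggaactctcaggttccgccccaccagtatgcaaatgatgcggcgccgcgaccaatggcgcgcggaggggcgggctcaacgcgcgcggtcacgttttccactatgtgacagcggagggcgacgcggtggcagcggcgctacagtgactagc
The window of Dbp holds neither set of letters. Only these exact letters were searched, so variant forms, other elements and sites outside the window were not looked for in any of the 3 genes. Of all 33469 promoter windows in the table, 6.42% hold the E-box and 2.24% the D-box.

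Lcn2, which encodes the secreted iron-carrier-binding lipocalin of epithelia and neutrophils, had the largest fitted change of the called genes without overlap. It read 67.1, 81.1, 36.7, 55.5 and 136 in ACI and 1852, 2009.5, 4792, 2112 and 2020.5 in WF. Every WF array was above every ACI array, and WF 3 stood above the other WF arrays. Means were 75.2 ± 37.4 in ACI and 2557 ± 1253 in WF (SD, n = 5; log2 change -5.12, SE 0.33, adjusted p = 1.82e-12), and the change was -5.53 (adjusted p = 9.66e-12) without ACI 2 and ACI 5. Mean signals in the other groups were 1616 in Cop, 72.3 in F344, 2742 in BUF/N and 1694 in F1. Signals were thus low in ACI and F344 and high in the other 4 groups.

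Other markers of luminal epithelium differed less. Of 12 tested, 2 were lower in ACI (Lcn2 and Cldn3) and 1 higher (Cd24), with a median of -0.42. Changes were negative in 10 and positive in 2, which were Cd24 and the uncalled Gata3 (0.95, adjusted p = 0.173). As this is bulk tissue, fewer cells of a type and less RNA per cell cannot be told apart. Cldn3, a claudin of epithelial tight junctions, changed by -0.83 (adjusted p = 0.0312), with WF 1 above the other WF arrays. The call of Cldn3 was not called without any 1 of ACI 2, ACI 3, ACI 5, WF 1 and WF 2 (adjusted p 0.0515 to 0.114) or under 4 other settings (adjusted p 0.0527 to 0.395). Cd24, a surface glycoprotein of luminal cells, changed by 0.66 (adjusted p = 0.0169). Other Cd24 probe sets gave -0.43 (adjusted p = 0.469) and 0.17 (adjusted p = 0.739), with neither called. The call of Cd24 was not called without any 1 of ACI 2, ACI 5 and WF 5 (adjusted p 0.0548 to 0.0628), in a fit of the ACI and WF arrays alone (0.058) or without both ACI 2 and ACI 5 (0.231). Krt8, Krt18 and Krt19, the keratins of luminal cells, stood at -0.67, -0.39 and -0.32, and none passed the test on the probe sets of highest signal (adjusted p = 0.0543, 0.184 and 0.43). A second Krt18 probe set was called (-0.76, adjusted p = 0.0242, and 0.332 without ACI 2 and ACI 5). Summed over the list, luminal marker signals ran from 6018 to 8255 in ACI and from 10188 to 14984 in WF, Lcn2 included. Lcn2 alone read 36.7 to 136 in ACI and 1852 to 4792 in WF, a large part of that gap.

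Basal epithelial and smooth muscle markers were lower in ACI where called. Of 9 tested, 3 were lower (Myh11, Cnn1 and Tagln, genes of the smooth muscle contractile apparatus) and none higher, with a median of -0.44. The others were not called and went both ways. Acta2 (0.27), Oxtr (0.19) and Des (0.59) had positive changes, and Krt5 (-0.65), Krt14 (-0.92) and Actg2 (-0.16) negative ones. Myh11, the smooth muscle myosin heavy chain, read 382, 438, 576, 608 and 572 in ACI and 818, 949, 968, 816 and 734 in WF, without overlap (log2 change -0.75, SE 0.18, adjusted p = 0.00923). A second Myh11 probe set, of lower signal, was not called (-0.097, adjusted p = 0.932). Cnn1, a calponin, changed by -0.65 (adjusted p = 0.0168), and Tagln, transgelin, by -0.44 (adjusted p = 0.0424) on the probe set of highest signal and -0.86 (adjusted p = 0.000107) on another. The call of Cnn1 was not called without WF 1 (adjusted p = 0.0508) or WF 2 (0.0594), with array weights (0.0706) or without both ACI 2 and ACI 5 (0.104). The call of Tagln was not called without any 1 of ACI 1, ACI 2, ACI 3, WF 2, WF 3, WF 4 and WF 5 (adjusted p 0.0502 to 0.146) or under 5 other settings (adjusted p 0.0541 to 0.185).

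Milk protein genes varied widely within both strains, and none of 11 tested was called. Csn2, beta casein, read 4095, 2485, 174, 2831 and 708 in ACI and 178, 950.0, 3201, 376 and 243 in WF, which overlapped over most of their range. Wap, whey acidic protein, read 1081, 1048, 252, 419 and 531 in ACI and 181, 282, 1308, 99.4 and 123 in WF. Neither passed the test (adjusted p = 0.505 and 0.324), and Csn3, kappa casein, stood at 0.014 (adjusted p = 0.991). ACI 3 was lowest in ACI and WF 3 highest in WF for both Csn2 and Wap. The largest change in the list was that of Csn1s2a, another casein gene (1.48, adjusted p = 0.354).

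Genes of the MHC class II complex included opposite calls on different probe sets of RT1-Bb, the beta chain of the rat class II molecule RT1.B that presents peptides to helper T cells. On 1 probe set RT1-Bb read 912, 730.4, 1306, 709.9 and 1189.9 in ACI and 84.6, 36.5, 45.6, 34.5 and 52.2 in WF (log2 change 4.29, SE 0.21, adjusted p = 1.79e-15). On another it read 2.7, 11.1, 1.3, 1.8 and 10.3 in ACI, all under the floor, and 429, 673, 252, 1000.4 and 967 in WF, at least 32.1-fold lower in ACI (adjusted p = 3.45e-14). The groups did not overlap on either. A further probe set gave -0.67 (adjusted p = 0.0858), and the last was under the floor in both strains. The first probe set had mean signals of 958 in Cop, 1168 in F344 and 62.1 in BUF/N, and the second of 1.7, 5.5 and 422. Array probes read short stretches of sequence, so that a sequence difference between the strains under a probe and a difference in RNA level cannot be told apart.

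Of 8 tested class II genes, 2 were called, both lower in ACI, and the median was -0.39. RT1-DMa, which helps load peptides, changed by -0.64 (adjusted p = 0.0142) and RT1-Ba, the alpha chain partner of RT1-Bb, by -0.85 (adjusted p = 0.029). Other RT1-Ba probe sets gave 0.14 (adjusted p = 0.784) and -0.51 (adjusted p = 0.388), with neither called. The call of RT1-DMa was not called without ACI 5 (adjusted p = 0.0503) or without both ACI 2 and ACI 5 (0.129). The call of RT1-Ba was not called without any 1 of ACI 1, WF 4 and WF 5 (adjusted p 0.0703 to 0.0823) or without the filter on low signals (0.0592). On probe sets of lower signal RT1-DMb (-1.32, adjusted p = 0.00849, and 0.116 without ACI 2 and ACI 5) and RT1-Da (-1.08, adjusted p = 0.00316, and 0.0309 without ACI 2 and ACI 5) were also lower. Among 11 class I and antigen processing genes, 4 were lower and 1 higher (median -0.16). Psmb8, a subunit of the immunoproteasome, read 669.6, 403, 511, 416 and 369 in ACI and 1019, 842, 905, 1010.1 and 844 in WF, without overlap (log2 change -0.99, SE 0.18, adjusted p = 0.000465). The class I genes RT1-M3-1 (-0.87, adjusted p = 0.00927) and RT1-N3 (-1.63, adjusted p = 0.0092) were lower as well. RT1-S3, another class I gene, stood at -0.66 (adjusted p = 0.0457) and was not called without any 1 of 7 arrays, ACI 2 among them. Neither RT1-M3-1 nor RT1-N3 was called without both ACI 2 and ACI 5 (adjusted p = 0.0717 and 0.088). Tap1, which carries peptides into the endoplasmic reticulum, was higher (0.86, adjusted p = 0.0184), and a second Tap1 probe set gave 0.35 (adjusted p = 0.449). The call of Tap1 was not called without ACI 1 (adjusted p = 0.0516). Psmb9, another immunoproteasome subunit, was lower on 1 of its probe sets (-0.78, adjusted p = 0.0399, and 0.596 without ACI 2 and ACI 5). Because class I genes are near-identical copies of each other, their probe sets may read more than the named gene.

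The enzymes that make fatty acids and sterols were higher in ACI where called. These pathways turn citrate and acetyl-CoA into fatty acids and cholesterol, and in the mammary gland they serve both the fat pad and milk fat. Over all genes 3.18% were called higher and 3.21% lower. Of 22 tested genes, 9 were higher and none lower (Acaca, Fasn, Me1, Scd and Elovl5 of fatty acid synthesis, and Sqle, Insig1, Dhcr7 and Nsdhl of sterol synthesis and its control), 18 had a positive change, and the median was 0.36 against 0.025 over all genes. The count fell to 3 without ACI 5 (Me1, Insig1 and Dhcr7), to 3 without both ACI 2 and ACI 5 (Insig1, Sqle and Dhcr7) and to 5 without WF 2 or with the ACI and WF arrays alone. The median was 0.44 without ACI 2 and ACI 5.

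Dhcr7, the last enzyme of cholesterol synthesis, read 438, 447, 415, 480.0 and 464 in ACI and 178, 136, 143, 183 and 255 in WF. No WF array reached the lowest ACI array (log2 change 1.36, SE 0.24, adjusted p = 0.000249), and the change was 1.35 (adjusted p = 0.00413) without ACI 2 and ACI 5. Me1, cytosolic malic enzyme, which makes NADPH for fatty acid synthesis, read 1239, 1456, 981, 1825 and 1758 in ACI and 657, 460.4, 579.8, 335 and 399 in WF (log2 change 1.58, SE 0.36, adjusted p = 0.00528). The groups did not overlap, and 3 further Me1 probe sets gave 2.0, 1.37 and 1.62, all called. Without ACI 2 and ACI 5 the change was 1.47 (adjusted p = 0.0515).

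Fasn, fatty acid synthase, read 3427, 2829.8, 2577, 3504 and 3971 in ACI and 1588, 787, 1419.6, 728 and 1010.3 in WF on the probe set with the larger change (log2 change 1.61, SE 0.39, adjusted p = 0.00935), without overlap. The other Fasn probe set gave 1.0 (adjusted p = 0.0269), and without ACI 2 and ACI 5 neither passed the test (adjusted p = 0.0562 and 0.0827). Insig1, which restrains the sterol-sensing factor SREBP, changed by 0.93 (adjusted p = 0.00992) and was called in every setting that left out an array. Sqle, squalene epoxidase, changed by 0.73 (adjusted p = 0.0164). The call of Sqle was not called without ACI 5 (adjusted p = 0.0545) or WF 1 (0.0628) or in a fit of the ACI and WF arrays alone (0.0527). Scd, stearoyl-CoA desaturase, read 7383, 6663, 7089.7, 6983 and 7081 in ACI and 7632, 4876, 3888, 3453 and 2651 in WF, where WF 1 reached above every ACI array. Its change was 0.74 (adjusted p = 0.0458), and it was not called without any 1 array of either strain other than WF 1. Acaca, the carboxylase that commits acetyl-CoA to fatty acid synthesis, stood at 0.95 (adjusted p = 0.0306), Elovl5, an elongase of polyunsaturated fatty acids, at 0.77 (adjusted p = 0.0244) and Nsdhl, a sterol dehydrogenase, at 0.97 (adjusted p = 0.0225). None of these 3 was called without ACI 5, or without both ACI 2 and ACI 5 (adjusted p = 0.0577, 0.345 and 0.267). On probe sets of lower signal Acly, which makes cytosolic acetyl-CoA from citrate, was higher on a pair (1.39, adjusted p = 0.0157 and 0.90, adjusted p = 0.046), as were Acat2 (0.70, adjusted p = 0.0405) and Cyp51 (0.78, adjusted p = 0.0315). None of these 3 genes was called there without both ACI 2 and ACI 5. Srebf1, which encodes a form of SREBP, was not called (-0.26, adjusted p = 0.622). In F344 the mean signals of Fasn (3510.1) and Me1 (2205) stood above those of ACI (3262 and 1452), while Cop had 1718 and 715 and BUF/N 1238 and 669.7. The F344 arrays spread widely, with SDs of 1569 for Fasn and 1240 for Me1, so the order of F344 and ACI is uncertain.

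Pnpla3, a lipase and acyltransferase of lipid droplets that is induced with fatty acid synthesis, read 212, 232, 152, 294 and 646 in ACI and 25.9, 34.7, 68.4, 20.3 and 40.8 in WF. ACI 5 was the highest, and the groups did not overlap (log2 change 2.96, SE 0.43, adjusted p = 2.22e-05, and 2.60 (adjusted p = 0.000939) without ACI 2 and ACI 5). Of 17 adipocyte genes, 2 were higher and none lower (median 0.15), where 3.18% of all genes were called higher. Lpl, lipoprotein lipase, which frees fatty acids from blood lipids, changed by 0.53 (adjusted p = 0.00325), with 1.08 (adjusted p = 0.000481) on a second probe set. Aqp7, the glycerol channel of fat cells, changed by 0.73 (adjusted p = 0.00509). The call of Lpl was not called without both ACI 2 and ACI 5 (adjusted p = 0.0562). The call of Aqp7 was not called in a fit of the ACI and WF arrays alone (adjusted p = 0.051). Slc2a4, the insulin-regulated glucose transporter of fat and muscle, was higher on a probe set of lower signal (1.26, adjusted p = 0.0205, and 0.347 without ACI 2 and ACI 5). Summed adipocyte signals overlapped, from 24565 to 29258 in ACI and from 23569.6 to 32255 in WF.

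Of 5 brown fat genes, 2 were higher (Ucp3 and Cidea, median 0.78), and neither was called without ACI 2 and ACI 5 or with the ACI and WF arrays alone. Ucp3, an uncoupling protein of muscle and brown fat, changed by 0.79 (adjusted p = 0.0135), and Cidea, a lipid droplet protein, by 0.63 (adjusted p = 0.0318). The call of Cidea was not called without any 1 of ACI 2, ACI 4, ACI 5, WF 1, WF 2 and WF 3 (adjusted p 0.0531 to 0.136) or under 3 other settings (adjusted p 0.142 to 0.344). Of 18 genes of fatty acid oxidation, 2 were lower and none higher, with a median of -0.03 (0.10 without ACI 2 and ACI 5). On probe sets of lower signal 3 others were called higher, and these were Acat1, a thiolase (1.36, adjusted p = 0.0416, and 0.279 without ACI 2 and ACI 5), Cpt1b, which admits fatty acids to mitochondria of muscle and brown fat (1.12, adjusted p = 0.0312, and 0.459 without ACI 2 and ACI 5), and Etfdh. Acaa2, a mitochondrial thiolase, read 752, 655, 708, 1086 and 779.6 in ACI and 1639.6, 1491, 2142, 1103 and 1463 in WF (log2 change -0.97, SE 0.20, adjusted p = 0.00174), without overlap. Acadl, long-chain acyl-CoA dehydrogenase, changed by -0.61 (adjusted p = 0.036). The call of Acadl was not called without any 1 of ACI 1, ACI 2, ACI 5, WF 2, WF 3 and WF 5 (adjusted p 0.0639 to 0.147) or under 3 other settings (adjusted p 0.0547 to 0.322). Etfdh, which passes electrons from that oxidation to ubiquinone, read 114, 116, 143, 117 and 76 in ACI and 2, 1, 1.8, 1.1 and 2.2 in WF on 1 probe set, at least 6.07-fold higher in ACI (adjusted p = 5.44e-05). The WF arrays were all under the floor there. On 2 other Etfdh probe sets the changes were 0.15 and 0.37, with neither called. Among 23 genes of the respiratory chain and ATP synthase, Sdha, a subunit of succinate dehydrogenase, was called (0.58, adjusted p = 0.0252; median 0.13). Over all genes 6.39% were called. The call of Sdha was not called without any 1 of ACI 2, ACI 4, ACI 5, WF 1 and WF 2 (adjusted p 0.0517 to 0.103), in a fit of the ACI and WF arrays alone (0.0973) or without both ACI 2 and ACI 5 (0.196). Atp5pf, a subunit of ATP synthase, was higher on a probe set of lower signal (0.69, adjusted p = 0.0315, and 0.326 without ACI 2 and ACI 5). None of 13 glycolysis genes was called on its probe set of highest signal (median 0.12), and Ldhb, a lactate dehydrogenase subunit, was higher on another (0.75, adjusted p = 0.0139, and 0.0905 without ACI 2 and ACI 5).

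Enzymes that process foreign compounds and reactive carbonyls differed in both directions. Of 18 phase I genes, 3 were lower and 1 higher (median 0.008), and of 26 genes of glutathione and conjugation, 3 were lower and 1 higher (median -0.14). Without ACI 2 and ACI 5 the phase I list kept 1 called gene, lower in ACI, and the glutathione list 1, higher in ACI.

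Cbr1, carbonyl reductase, which reduces quinones and prostaglandins, read 332, 209, 308, 413 and 177 in ACI and 2204, 2483, 1438, 2010.0 and 2533 in WF. The lowest WF array was above the highest ACI array (log2 change -2.93, SE 0.31, adjusted p = 1.44e-07, and -2.59 (adjusted p = 2.04e-05) without ACI 2 and ACI 5). A second Cbr1 probe set, of a kind that can read related genes, gave -2.40 (adjusted p = 1.48e-06). Ephx2, soluble epoxide hydrolase, which opens the epoxides of fatty acids, read 11, 9.5, 49.6, 11.5 and 10.2 in ACI and 176, 164, 388, 103 and 209.7 in WF. In ACI all arrays but ACI 3 were under the floor (log2 change -3.08, SE 0.43, adjusted p = 1.13e-05). Further Ephx2 probe sets gave -2.65 and -2.49, both called, and the brightest gave -0.98 (adjusted p = 0.106). Ephx1, microsomal epoxide hydrolase, changed by -1.05 (adjusted p = 0.00583), and Por, the reductase that feeds electrons to cytochromes P450, by -0.51 (adjusted p = 0.0275). The call of Ephx1 was not called without both ACI 2 and ACI 5 (adjusted p = 0.109). The call of Por was not called without any 1 of ACI 2, ACI 5, WF 1, WF 3 and WF 5 (adjusted p 0.052 to 0.119) or under 3 other settings (adjusted p 0.107 to 0.27). Cyp2e1, a cytochrome P450 of small solvents, was lower on a pair of probe sets of lower signal (-1.89, adjusted p = 0.0253 and -1.29, adjusted p = 0.0388), neither called without both ACI 2 and ACI 5. Akr1c3, an aldo-keto reductase of steroids and prostaglandins, was higher (1.08, adjusted p = 0.0135), also on a second probe set (1.09, adjusted p = 0.00274). The call of Akr1c3 was not called without ACI 2 (adjusted p = 0.056) or without both ACI 2 and ACI 5 (0.159).

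Gstt2, a theta-class glutathione transferase, read 151, 132, 144, 132 and 235 in ACI and 69.4, 94.3, 63.6, 70.9 and 57.3 in WF, without overlap and with ACI 5 above the other ACI arrays (log2 change 1.15, SE 0.18, adjusted p = 6.72e-05). The means of both strains lay below those of the other inbred strains, which were 213 in Cop, 525 in F344 and 798 in BUF/N, and a second Gstt2 probe set was not called (-0.13, adjusted p = 0.746). Gsta4, which conjugates products of lipid peroxidation, changed by -0.91 (adjusted p = 0.00809), Gpx2, an epithelial glutathione peroxidase, by -1.47 (adjusted p = 0.0144), and Gstp1, the pi-class transferase, by -0.59 (adjusted p = 0.0232). A second Gsta4 probe set was not called (-0.42, adjusted p = 0.46). The call of Gsta4 was not called without both ACI 2 and ACI 5 (adjusted p = 0.0599). The call of Gpx2 was not called without ACI 2 (adjusted p = 0.0526), in a fit of the ACI and WF arrays alone (0.0511) or without both ACI 2 and ACI 5 (0.094). The call of Gstp1 was not called without any 1 of ACI 2, ACI 5, WF 1 and WF 2 (adjusted p 0.0509 to 0.105) or under 3 other settings (adjusted p 0.0825 to 0.345). Nqo1, a quinone reductase, stood at 0.65 (adjusted p = 0.28) and Cyp1b1, which oxidises oestrogens and polycyclic hydrocarbons, at 0.08 (adjusted p = 0.925). Cyp27a1, a sterol hydroxylase of bile acid synthesis, changed by -1.53 (adjusted p = 0.026) with ACI 3 above the other ACI arrays, and by -0.75 (adjusted p = 0.00937) on a second probe set. The call of Cyp27a1 was not called without any 1 of ACI 2, ACI 5, WF 1 and WF 2 (adjusted p 0.0582 to 0.098) or under 3 other settings (adjusted p 0.0602 to 0.146).

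Among hormone and growth factor genes, cyclin D1 was higher in ACI. Ccnd1, which drives cells from G1 into S phase and is a target of oestrogen and progesterone in the mammary epithelium, read 1474, 1025, 1153, 1784 and 756 in ACI and 367, 719, 418, 589 and 601 in WF on its brightest probe set (log2 change 1.18, SE 0.24, adjusted p = 0.00179). The groups did not overlap, and a second probe set gave 1.5 (adjusted p = 3.75e-05), another 0.92 (adjusted p = 0.00506) and the last 0.32 (adjusted p = 0.368). Of 10 oestrogen and progesterone response genes, 2 were higher (Ccnd1 and Igfbp5) and 1 lower (Cited1), with a median of 0.35. Pgr, the progesterone receptor, was not called (0.57, adjusted p = 0.411), and Esr1, an oestrogen receptor, did not pass the filter on low signals. Cited1, a coactivator of the oestrogen receptor, changed by -1.37 (adjusted p = 0.0282). The call of Cited1 was not called without any 1 of ACI 2, ACI 5, WF 1, WF 3, WF 4 and WF 5 (adjusted p 0.0512 to 0.0985) or under 3 other settings (adjusted p 0.0668 to 0.309).

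Igfbp5, an IGF-binding protein that rises in the involuting gland, read 503, 515, 685, 687 and 454 in ACI and 248, 257, 75.6, 159 and 244 in WF (log2 change 1.64, SE 0.33, adjusted p = 0.00175). Although these signals did not overlap, 2 other Igfbp5 probe sets gave -0.52 and -0.56, with neither called. Of 12 genes of the IGF axis, Igfbp5 was higher and Igf2 lower (median -0.10). Igf2, a fetal growth factor, changed by -0.73 (adjusted p = 0.0398), but 2 other Igf2 probe sets gave 0.21 and 0.26, with neither called, and Igf1 stood at -0.098 (adjusted p = 0.784). The call of Igf2 was not called without any 1 of ACI 1, ACI 2, ACI 3, ACI 4, WF 1, WF 2 and WF 3 (adjusted p 0.0549 to 0.128) or under 4 other settings (adjusted p 0.0597 to 0.0649). None of 9 prolactin and growth hormone signalling genes was called (median -0.098), with Prlr, the prolactin receptor, at -0.27 and Ghr, the growth hormone receptor, at 0.062. None of 13 receptors and ligands of the ErbB, FGF and HGF families was called (median 0.052).

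Pik3r1, the regulatory subunit of the phosphoinositide kinase downstream of insulin and IGF receptors, read 232, 126, 269, 218 and 112 in ACI and 9, 46.2, 29.9, 24 and 63.3 in WF. The groups did not overlap (log2 change 2.46, SE 0.31, adjusted p = 2.15e-06), and a second probe set gave 1.84 (adjusted p = 0.000122). BUF/N had a mean of 597 on the first, above both strains. Of 12 cell cycle genes none was called, although 11 had a positive change and the median was 0.50. Mcm6, a subunit of the replicative helicase, stood at 0.99 (adjusted p = 0.071), and without ACI 2 and ACI 5 Mcm6 and Pcna, the sliding clamp of DNA polymerase, were called at 1.48 and 1.16. Mcm6 read 617, 306, 484, 852 and 240.4 in ACI and 146, 203, 258, 342 and 229 in WF, with ACI 2 and ACI 5 the lowest of the ACI arrays. Among 12 targets of p53 and apoptosis genes, Ccng1, cyclin G1, was lower (-1.45, adjusted p = 0.000166; median -0.12), without overlap, with ACI signals of 268, 217, 346, 289.8 and 132 and WF signals of 767, 560.1, 502, 679.5 and 805.

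**Figure D3:**
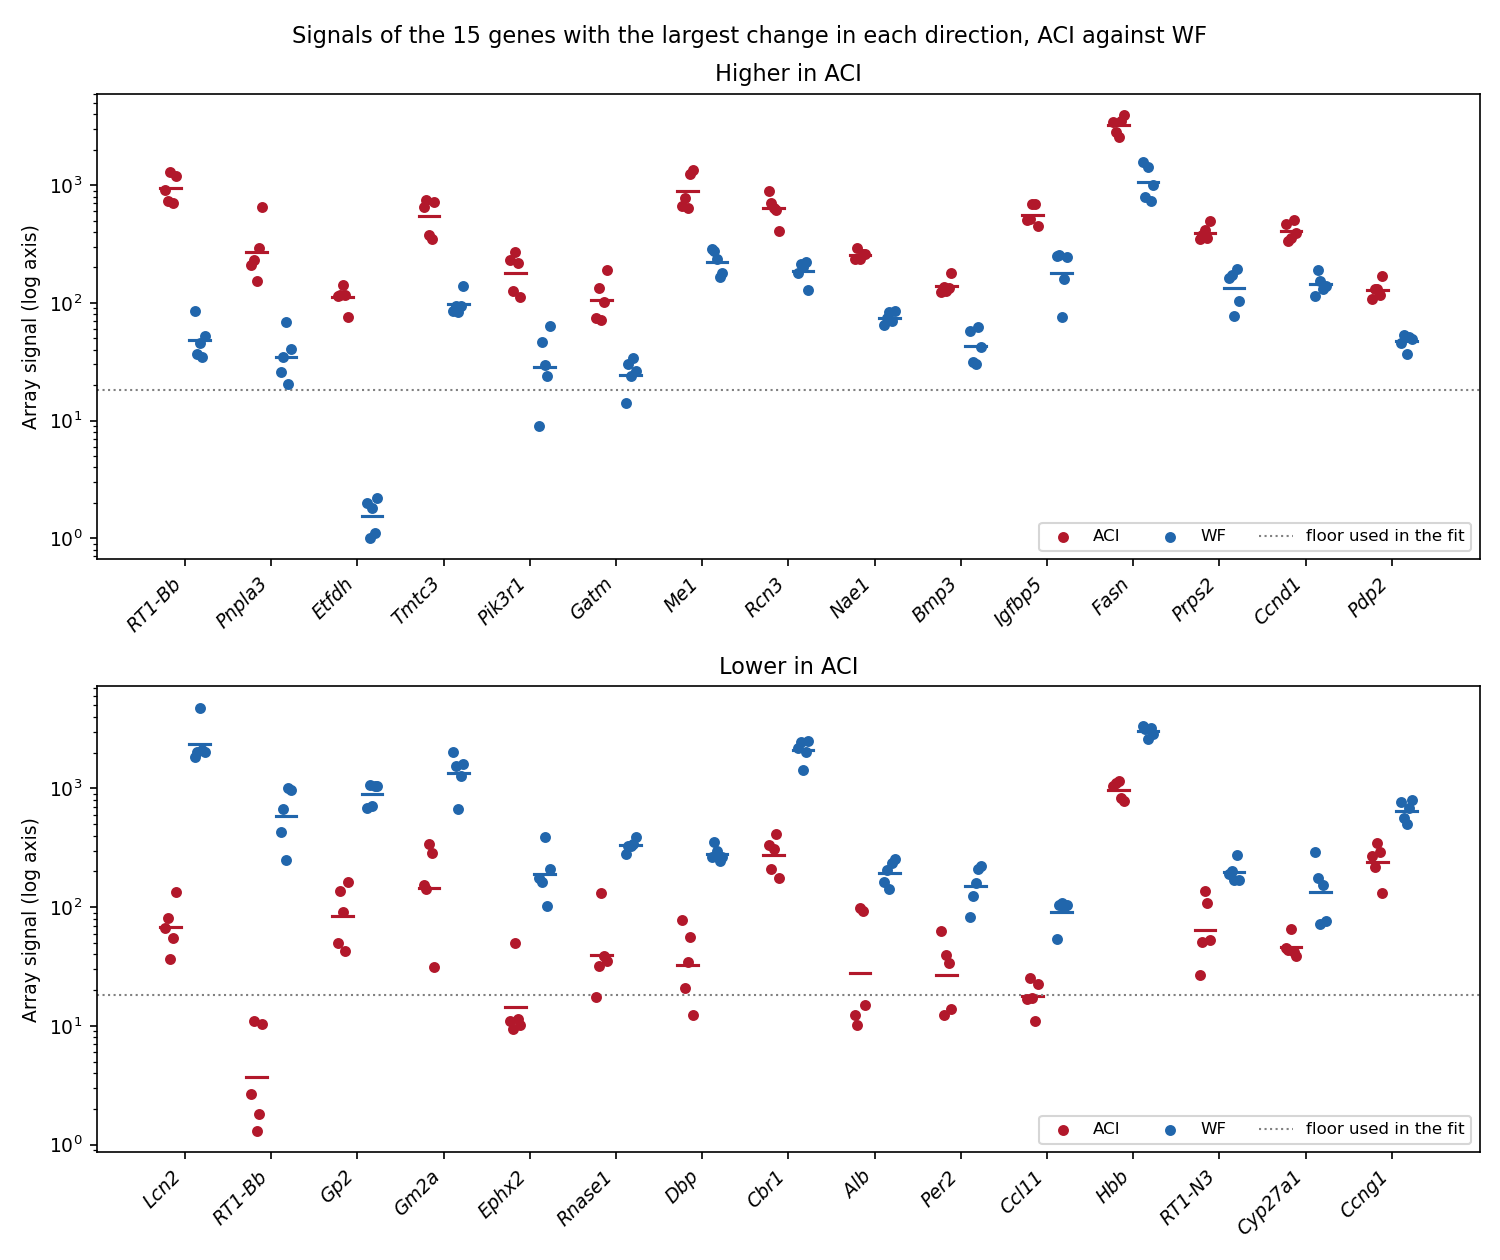
The panels plot the signals (log axis) of the 5 ACI arrays (red) and the 5 WF arrays (blue) for the 15 genes with the largest non-overlapping called change in each direction, with bars at the geometric mean and a dotted line at the floor of 18.3. RT1-Bb appears in both panels on different probe sets, and under the floor lie all 5 ACI arrays of the lower RT1-Bb probe set, 4 of Ephx2, 3 each of Alb and Ccl11, 2 of Per2 and 1 each of Dbp and Rnase1, as well as all 5 WF arrays of Etfdh and 1 each of Pik3r1 and Gatm.

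The remaining genes of largest change were of varied function. Higher in ACI were Tmtc3, a mannosyltransferase of the endoplasmic reticulum, and Gatm, the first enzyme of creatine synthesis. Tmtc3 read 658, 754, 378, 346 and 725 in ACI and 84.6, 93.1, 83.7, 94.2 and 140.2 in WF (log2 change 2.48, SE 0.24, adjusted p = 4e-08), with WF 5 above the other WF arrays, and Gatm changed by 2.04 (adjusted p = 4.25e-05). Bmp3, a bone morphogenetic protein, changed by 1.69 (adjusted p = 6.72e-05), with ACI 5 above the other ACI arrays, and by 0.93 (adjusted p = 0.0208) on a second probe set. Prps2, which makes the ribose precursor of nucleotides, changed by 1.56 (adjusted p = 7.67e-05), and Pdp2, the phosphatase that activates pyruvate dehydrogenase, by 1.46 (adjusted p = 0.000708). Rcn3, a calcium-binding protein of the endoplasmic reticulum, changed by 1.77 (adjusted p = 8.88e-07), but its other probe set gave -0.49 (adjusted p = 0.172). Nae1, a subunit of the enzyme that activates a ubiquitin-like protein, changed by 1.77 (adjusted p = 1.15e-06), but by -0.13 (adjusted p = 0.818) on its other probe set.

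Next to Lcn2, the largest fitted changes among genes lower in ACI included Gp2 and Gm2a. Gp2, a glycoprotein of secretory granule membranes, read 49.7, 137, 91.6, 43 and 162 in ACI and 681, 1074, 713, 1049 and 1056 in WF (log2 change -3.40, SE 0.39, adjusted p = 5.31e-07). Here WF was the strain away from the rest, with means of 135 in Cop, 60.6 in F344 and 59 in BUF/N. Gm2a, the activator protein of lysosomal ganglioside breakdown, read 153, 142, 340.1, 288 and 31.2 in ACI and 2028, 1552, 666, 1262 and 1620.3 in WF (log2 change -3.19, SE 0.48, adjusted p = 3.75e-05). For Gm2a it was ACI that lay away from F344 (1411) and BUF/N (1674), with Cop at 364. Rnase1, a secreted ribonuclease, changed by -3.04 (adjusted p = 0.00222). Ccl11, the eotaxin that attracts eosinophils, changed by -2.17 (adjusted p = 5.97e-06) with 3 ACI arrays under the floor and WF 1 below the other WF arrays. Alb, serum albumin, read 12.3, 10.2, 98.6, 93.1 and 14.9 in ACI and 162, 207, 144, 235 and 255 in WF (-2.46, adjusted p = 0.00994). It was not called without both ACI 2 and ACI 5 (adjusted p = 0.164), and 2 other Alb probe sets gave -1.11 and -0.96, with neither called. Of 11 plasma proteins of liver type, Rbp4, the retinol carrier, was higher (0.56, adjusted p = 0.046; median -0.32). On probe sets of lower signal Cp, ceruloplasmin (-1.13, adjusted p = 0.00497, and 0.0138 without ACI 2 and ACI 5), and Apoe, a lipoprotein component (-0.61, adjusted p = 0.00779, and 0.159 without ACI 2 and ACI 5), were lower and Apoc3, an inhibitor of lipoprotein lipolysis, higher (1.19, adjusted p = 0.029, and 0.253 without ACI 2 and ACI 5). The call of Rbp4 was not called without any 1 of ACI 1, ACI 2, ACI 5, WF 1, WF 2, WF 3, WF 4 and WF 5 (adjusted p 0.0505 to 0.169) or under 5 other settings (adjusted p 0.0602 to 0.414). Hs6st1, a heparan sulfate sulfotransferase, was also higher (0.64, adjusted p = 0.0261). The call of Hs6st1 was not called without any 1 of ACI 1, ACI 2, ACI 5, WF 1, WF 4 and WF 5 (adjusted p 0.0512 to 0.105) or under 4 other settings (adjusted p 0.0548 to 0.345).

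Skeletal muscle genes had the highest median of the lists, 1.42, but only 1 of 18 was called. Myh4, the fast myosin heavy chain, read 1488, 1819, 2907, 1074 and 106 in ACI and 68.1, 665, 19.1, 97.2 and 25 in WF, which overlapped through ACI 5 and WF 2 (log2 change 3.74, SE 1.05, adjusted p = 0.0251). The call of Myh4 was not called without any 1 of ACI 1, ACI 2, ACI 3, WF 1, WF 3 and WF 5 (adjusted p 0.0511 to 0.0789), without the filter on low signals (0.0664) or in a fit of the ACI and WF arrays alone (0.0519). The change of Ckm, muscle creatine kinase, was 2.48 (adjusted p = 0.137) and that of Atp2a1, the calcium pump of fast fibres, 2.79 (adjusted p = 0.151). Summed over the list, signals ran from 2689 to 14756 in ACI (median 9821) and from 1067 to 10729.8 in WF (median 1954). The part of muscle in the samples in other differences was not tested. Without WF 2, the WF array highest for muscle genes, 3 of the 18 were called higher.

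Globin genes were lower in ACI. Of 4 red cell genes tested, 2 were lower and none higher (median -0.66). Hbb, beta globin, read 1045, 1112, 1161, 824 and 785 in ACI and 3360.2, 3185, 2602, 3216 and 2854 in WF (log2 change -1.64, SE 0.25, adjusted p = 4.2e-05), with no overlap, and Hbb-b1 changed by -0.76 (adjusted p = 0.0278). The call of Hbb-b1 was not called without any 1 of ACI 1, ACI 4, ACI 5, WF 1, WF 4 and WF 5 (adjusted p 0.0509 to 0.0676), without the filter on low signals (0.0546) or without both ACI 2 and ACI 5 (0.0658). Globin copies are near-identical, so the probe sets may share signal. Of 5 endothelial markers, Kdr, the main VEGF receptor, was higher (0.87, adjusted p = 0.026; median 0.16). The call of Kdr was not called without any 1 of ACI 2, WF 2 and WF 5 (adjusted p 0.0691 to 0.0798) or without both ACI 2 and ACI 5 (0.136).

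No marker of macrophages or lymphocytes was called. None of 9 macrophage markers (median -0.084), none of 11 T and NK lymphocyte markers (median 0.29) and not Cd79b, the only tested B lymphocyte marker, passed the test. C1qc, a complement chain made by macrophages, had the largest change of its list (-0.45, adjusted p = 0.0989), with WF 1 above the other WF arrays, and Cd3d, a chain of the T cell receptor complex, that of its list (0.84, adjusted p = 0.51). Of 7 mast cell markers Tpsab1, a tryptase, was lower (-0.77, adjusted p = 0.0123; median 0.036), and not so with the ACI and WF arrays alone (adjusted p = 0.0997). Kit, the stem cell factor receptor, was lower on a probe set of lower signal (-0.90, adjusted p = 0.0308, and 0.313 without ACI 2 and ACI 5). Of 9 interferon response genes Oas1a, an antiviral oligoadenylate synthetase, was lower (-0.65, adjusted p = 0.0199; median -0.15). The call of Oas1a was not called without any 1 of ACI 4, ACI 5 and WF 3 (adjusted p 0.0518 to 0.0732), in a fit of the ACI and WF arrays alone (0.0527) or without both ACI 2 and ACI 5 (0.094). Cnp, a myelin enzyme, was lower among 6 nerve and Schwann cell markers (-0.57, adjusted p = 0.035; median -0.065). The call of Cnp was not called without any 1 of ACI 1, ACI 2, ACI 4, ACI 5, WF 3 and WF 4 (adjusted p 0.0619 to 0.145), in a fit of the ACI and WF arrays alone (0.127) or without both ACI 2 and ACI 5 (0.146).

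Of 30 collagen and matrix genes, 3 were lower and 1 higher in ACI, with a median of 0.0034. Over all genes 3.21% were called lower and 3.18% higher. Mmp2, gelatinase A, which degrades basement membrane collagen, read 677, 639, 543, 601 and 542 in ACI and 1419.9, 1149.5, 1943, 1242 and 1407 in WF, without overlap (log2 change -1.24, SE 0.17, adjusted p = 1.13e-05, and -1.22 (adjusted p = 0.000337) without ACI 2 and ACI 5). Nid1, nidogen of the basement membrane, changed by -1.88 (adjusted p = 0.00356) with 3 ACI arrays under the floor, and Timp3, an inhibitor of matrix proteases, by -0.75 (adjusted p = 0.0123). The call of Nid1 was not called without both ACI 2 and ACI 5 (adjusted p = 0.0552). The call of Timp3 was not called without both ACI 2 and ACI 5 (adjusted p = 0.0666). Vcan, the proteoglycan versican, was higher (1.08, adjusted p = 0.0405). The call of Vcan was not called without any 1 of ACI 1, ACI 2, ACI 4, ACI 5, WF 1 and WF 3 (adjusted p 0.0577 to 0.141), without the filter on low signals (0.0819) or without both ACI 2 and ACI 5 (0.112).

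Of 18 immediate early genes, 1 was higher and 1 lower (median 0.13). Jund, an AP-1 transcription factor, read 96.8, 117, 129.8, 69.8 and 66.4 in ACI and 70.2, 16.3, 6.1, 16.4 and 8.2 in WF, where all but WF 1 were under the floor (log2 change 1.95, SE 0.36, adjusted p = 0.0005). It was not tested with the filter of 15 arrays. Ier3 changed by -0.94 (adjusted p = 0.0488), and by -0.50 (adjusted p = 0.307) on a second probe set. The call of Ier3 was not called without any 1 of ACI 1, ACI 2, ACI 3, ACI 4, WF 1 and WF 2 (adjusted p 0.0807 to 0.172) or under 6 other settings (adjusted p 0.0502 to 0.0913). Junb, another AP-1 factor, was lower on a probe set of lower signal (-0.79, adjusted p = 0.0465, and 0.304 without ACI 2 and ACI 5). On its probe set of highest signal, no gene was called among 8 of the glucocorticoid response (median -0.19), 11 chaperones of the endoplasmic reticulum (median 0.21) and 37 ribosomal proteins (median -0.19). On other probe sets Cebpd, a transcription factor of the glucocorticoid list, was lower (-1.43, adjusted p = 0.0366, and 0.605 without ACI 2 and ACI 5) and Hsp90b1, an endoplasmic reticulum chaperone, higher (0.61, adjusted p = 0.00825, and 0.048 without ACI 2 and ACI 5). Largest on the probe sets of highest signal were the changes of Pdk4, a kinase that restrains pyruvate dehydrogenase (-0.77, adjusted p = 0.423), of Pdia4, a disulfide isomerase (0.74, adjusted p = 0.257), for which ACI 5 lay below the other ACI arrays, and of Rpl5 (0.62, adjusted p = 0.175).

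**Figure D4:**
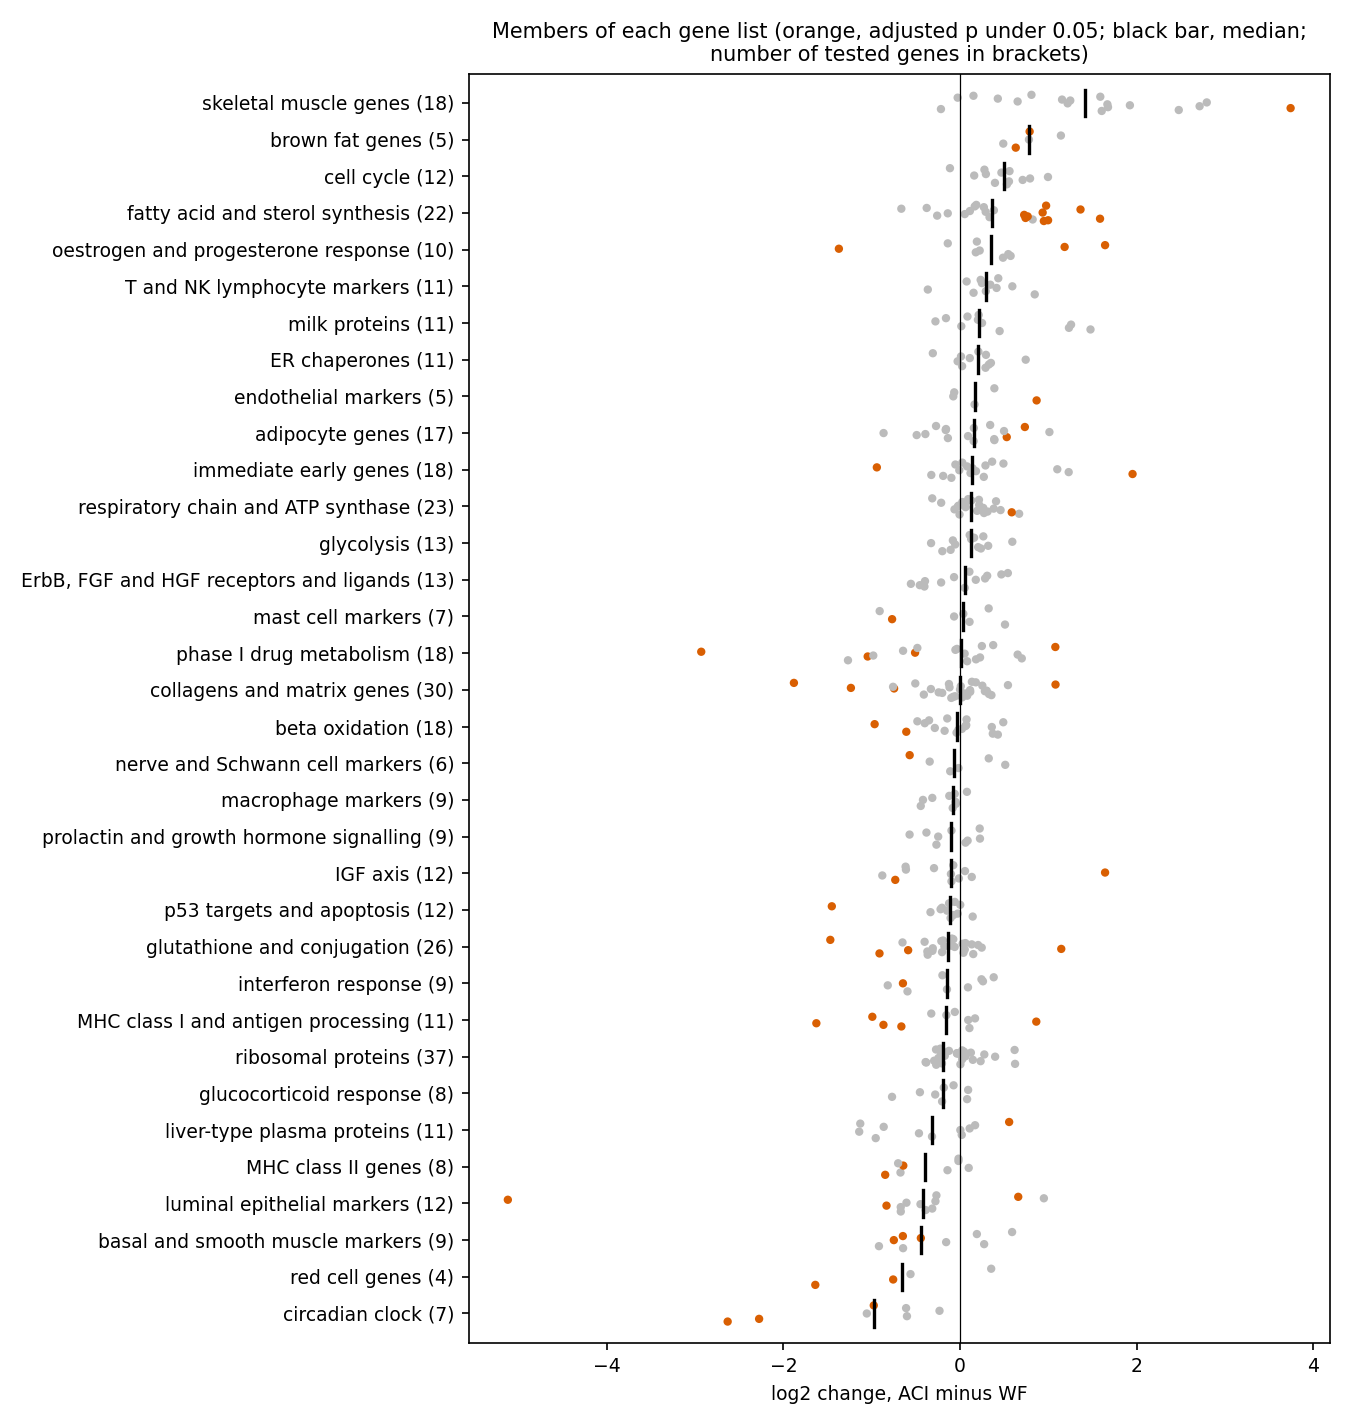
Each row plots the log2 change (ACI minus WF) of the tested members of a gene list, with called members in orange and the median as a black bar, for the lists with at least 4 tested members. Medians run from -0.98 for the circadian clock to 1.42 for skeletal muscle genes, and all 7 clock genes lie left of 0 while 9 of the 22 fatty acid and sterol synthesis genes are called on the right.

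To place each strain, both were also set against the mean of Cop, F344 and BUF/N in the same fit. These comparisons share arrays with the one between ACI and WF, so only values per gene are set side by side. In all, 425 probe sets (8.43%) were called for ACI and 284 (5.64%) for WF, and the ACI count was 130 without ACI 2 and ACI 5, 185 without ACI 2 and 203 without ACI 5. Without WF 3, the WF count was 171. The split of 233 higher and 192 lower in ACI became 134 and 320 with median centring and 189 and 275 with quantile normalization, and that of 164 higher and 120 lower in WF became 116 and 163 with median centring. For Ccl11 the changes were -1.91 in ACI (adjusted p = 1.98e-06) and 0.26 in WF (adjusted p = 0.639), and for Hbb -1.54 and 0.10. Rcn3 stood at -0.10 in ACI and -1.88 in WF, Gp2 at 0.27 and 3.68, and Dhcr7 at 0.19 and -1.17. Cbr1 lay at -1.25 in ACI and 1.68 in WF, on either side of that mean. Its mean signals were 288 in ACI and 2134 in WF, against 222 in Cop, 1793 in F344 and 784 in BUF/N, so Cop lay below ACI.

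Of the 296 called probe sets with 1 gene symbol, which covered 257 genes, 167 had another tested probe set of the same gene. In 70 of these another was called in the same direction, in 95 no other was called, and the 2 with an opposite call were those of RT1-Bb.

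**Figure D5:**
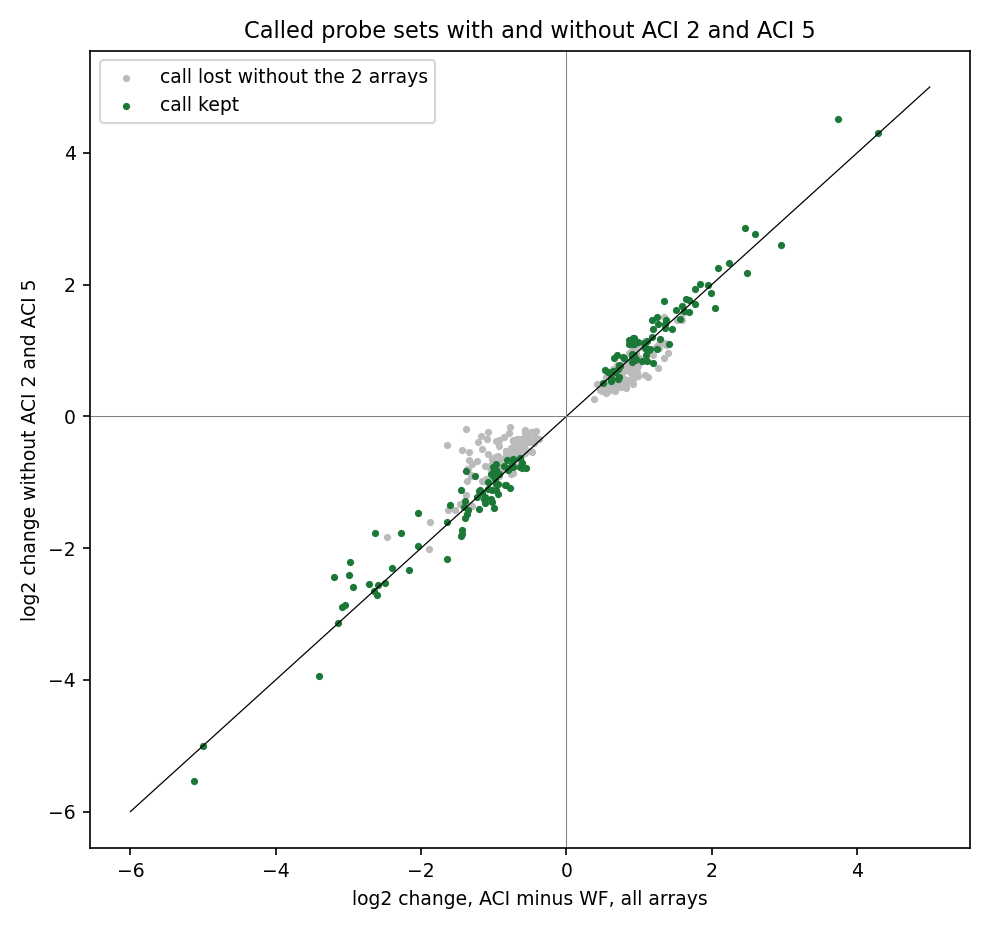
The plot sets the log2 change without ACI 2 and ACI 5 against that with all arrays for the 362 called probe sets, with the line of equality in black. All 362 points keep their sign, and the 152 that stayed called are green.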

How the data were processed

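Array values were the linear signals that the authors deposited for 8799 probe sets, 59 of them controls, computed per the labels with Affymetrix Microarray Suite 5.0 from 5 µg of total RNA. Deposited signals had a common trimmed mean. Groups came from the sample titles. Signals under the 25th percentile (18.3) were raised to it and log2 transformed, and the 5039 probe sets above the overall median on at least 5 of 30 arrays were tested. Means of the 6 groups were fitted over 30 arrays (pools left out) in limma 3.58.1 (R 4.3.3) with trended variances and 29.58 degrees of freedom, and p-values were adjusted by Benjamini-Hochberg within each contrast. The number of arrays limits the precision. In simulated data for this comparison (4899 probe sets tested), the fit called 17.9% of 67 probe sets changed 1.5-fold, 80.6% of 67 changed 2-fold and all 66 changed 4-fold. Every simulated probe set had the same normal spread, the median SD over the 30 arrays, and only brighter probe sets were changed. Real spreads differ by gene, signal and array, so these shares are not the power of the real comparison.

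Symbols came from the platform table updated by gene identifier from RefSeq (6994 matched; 7018 probe sets with 1 symbol, 308 with several, 1473 with none). A list uses the probe set of highest mean signal per gene. Named were the 15 genes per direction with the largest called change and no overlap of floored signals, up to 4 called members per list with the smallest adjusted p (or the member of largest change where none was called), and 20 chosen genes. Acaca, Scd, Elovl5, Nsdhl, Pcna, Srebf1, Ckm, Atp2a1, RT1-S3, Gata3 and keratins are named outside this rule, chosen after their values were seen. So are uncalled clock genes, uncalled basal and smooth muscle markers, and list genes called only on another probe set. Members and lists were chosen with earlier results of these data known.

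Alternatives were a replicate block, array weights, median centring or quantile normalization, a floor at the 40th or 10th percentile or an offset of 50 in its place, a filter on 15 arrays or none, untrended variances, a fit of the ACI and WF arrays alone, and leaving out arrays. Same-numbered ACI and WF arrays did not deviate together (r = -0.289 to 0.127), and the main fit does not pair them. With so few pairs this cannot show that the numbers carry no shared order or batch.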

Additional observations from a re-analysis of the deposited data

Results flagged for a closer look

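Of 198 groups of 5 arrays checked for the named genes, 12 held an array whose distance to the nearest other array was more than 0.71 of the range of the group, and chance alone gives about 1 in 20 groups. In ACI these were Bmp3 on ACI 5 (178 against 123 to 135, ratio 0.739), Dbp on ACI 5 (22.7 against 164 to 359, ratio 0.715), Gstt2 on ACI 5 (235 against 132 to 151, ratio 0.773) and Pdia4 on ACI 5 (285 against 529 to 634, ratio 0.773), and also Ephx2 on ACI 3 (49.6 against 9.5 to 11.5, ratio 1.0) and Cyp27a1 on ACI 3 (65.5 against 39.2 to 45.1, ratio 0.727). In WF they were Lcn2 on WF 3 (4792 against 1852 to 2112, ratio 0.862), Tmtc3 on WF 5 (140.2 against 83.7 to 94.2, ratio 0.771), Ccl11 on WF 1 (54.5 against 101 to 109, ratio 0.885), Cldn3 on WF 1 (1727 against 1171 to 1306, ratio 0.72), Jund on WF 1 (70.2 against 6.1 to 16.4, ratio 1.0) and C1qc on WF 1 (839 against 525 to 599, ratio 0.718). The signal of the array comes first in each bracket, followed by the range of the other 4, and the ratio of gap to range was taken on floored log2 signals. For Ephx2 and Jund the other 4 arrays were all under the floor, so the ratio of 1.0 was fixed by the floor. The share of about 1 in 20 does not apply to such groups. By array, ACI 5 and WF 1 each held 4, ACI 3 held 2, and WF 3 and WF 5 each held 1.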

How the results depend on the processing

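Of 100 named probe sets 77 were called, 50 of them without any 1 ACI or WF array and 44 without both ACI 2 and ACI 5. Over the alternatives of the named probe sets, 2046 values kept direction and side of the threshold, 202 were no longer called, 19 became called and 20 changed sign. Calls between ACI and WF numbered 210 with the ACI and WF arrays alone, 191 without both ACI 2 and ACI 5, and 230 to 427 with 1 array left out. With the replicate block they numbered 341. Against the mean of Cop, F344 and BUF/N, ACI had 425 calls, with 130 without both ACI 2 and ACI 5, 651 without both F1 2 and F1 3, and 185 to 525 with 1 array left out, and WF had 284, with 579 with array weights and 171 to 295 with 1 array left out. Scaling shifted the median change between ACI and WF by -0.024 (quantile) and -0.036 (centring). The sign changes were in genes not called. With array weights Cd3d was at -0.17, Cd79b at -0.20, Ghr at -0.061 and Cyp1b1 at -0.46. Without both ACI 2 and ACI 5 Ghr was at -0.21 and Cyp1b1 at -0.37. With median centring Csn3 was at -0.022. With 1 array left out Cd79b ranged from -0.31 to 0.57, Ghr from -0.085 to 0.22, Csn3 from -0.15 to 0.21 and Cyp1b1 from -0.12 to 0.36. The cause of these shifts was not tested. Signals under the floor have no order, which limits changes of dim genes.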
